A study of Glycine max with 12 samples.

Results

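Transcript levels of a soybean line edited in the chromosome 20 gene were compared with those of its wild type, the cultivar Thorne, in the libraries labelled V5. The comparison used 4 of the 12 libraries in the series, the 2 titled Gm20 single mutant V5 and the 2 titled Thorne V5, taken by their titles. The 2 libraries of the Gm20/Gm10 double mutant at V5, which also carries an edit in the chromosome 10 paralog, entered the fit to help estimate the spread between replicates. The labels give field-grown plants, seed of 3 to 5 plants as the material, and RNA sequencing of total RNA treated with DNase. They do not give the sequence change of the edit, the number of independent edited lines, whether the edited plants still carried the editing construct, or whether the 2 libraries of a group came from separate plots. P-values therefore measure the spread between these libraries, which may be technical.

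The edited gene underlies a major locus for seed protein content on soybean chromosome 20, where alleles that raise protein tend to lower oil. In filling soybean seed a small number of very abundant transcripts, mainly of storage proteins, make up much of the messenger RNA, so a change in a few genes can shift the apparent share of all the others. Soybean growers use V5 for a stage of leaf growth, yet the labelled tissue is seed, so the stage name serves here only as a label. In bulk tissue, fewer cells of a type and less RNA per cell cannot be told apart. The files hold gene IDs without names, and 0 of the 56044 IDs could be matched in the reference table, so the labelled tissue could not be checked against marker genes. Genes are given by ID, and no function is stated for them.

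The 2 single mutant libraries were not alike, and this bears on every result. Their total counts were 20788114 and 21066989, close to the 20410270 and 20519847 of the Thorne libraries. Levels are given as TMM-scaled CPM, the read count scaled to library size after a correction for library composition. Over 7967 abundant genes the standard deviation of the log2 ratio between the single mutant libraries was 1.437, against 0.270 between the Thorne libraries and 0.187 between the double mutant libraries. Single mutant replicate 1 differed from Thorne by 0.338 and 0.410 on this measure and from the double mutant by 0.240 and 0.260. Replicate 2 differed from each of the other 5 V5 libraries by 1.397 to 1.437. Each single mutant library is therefore set beside the Thorne mean separately.

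The IDs of the edited pair, Glyma.20G085100 on chromosome 20 and Glyma.10G134400 on chromosome 10, come from background knowledge of the locus. Glyma.20G085100 had 16 and 17 counts in the Thorne libraries, 31 in single mutant replicate 1 and 10 in replicate 2. The single mutant counts lay on both sides of Thorne, and the log2 fold change was -0.04 (SE 0.76) with an edgeR adjusted p of 0.985. Its value was 0.69 without single mutant replicate 2 and -1.46 without replicate 1. Glyma.10G134400 had 41 and 28 counts in Thorne, 67 in single mutant replicate 1 and 34 in replicate 2, and the groups overlapped. Its log2 fold change was 0.19 (SE 0.58) with an edgeR adjusted p of 0.895, with -0.76 without single mutant replicate 1 and 0.75 without replicate 2. An edit in a coding sequence need not alter the RNA level, so these counts do not check the genotype label.

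Over both libraries, 189 of 33599 tested genes (0.563%) were above both Thorne libraries and at least 2-fold above the Thorne mean in each single mutant library, and 402 genes (1.2%) were below in the same way. The 189 higher genes had a median log2 ratio to the Thorne mean of 1.28 in replicate 1 and 2.07 in replicate 2, and 152 of them lay further from Thorne in replicate 2. For the 402 lower genes the medians were -1.33 and -2.34, and 340 lay further in replicate 2. The higher genes were scarce in Thorne, with a median level of 1.06 CPM, and the lower genes had a median of 7.84 CPM there. Higher genes were 32% of the genes that met this 2-fold rule, and 59% when CPM was scaled by library total alone (317 higher and 220 lower), so the balance of directions depends on the scaling. With no limit on the fold, 5685 genes (16.9%) were above both Thorne libraries in both single mutant libraries and 6099 (18.2%) were below, a more even balance. With so few libraries a group, a random order alone would place many genes this way, so these shares do not show a group difference. Under the 2-fold rule the count of higher genes was 357 without Thorne replicate 1. Without single mutant replicate 2 it was 601, with 778 lower, and without replicate 1 it was 5748, with 6984 lower. Counts with a single mutant library left out are those of the library kept, on its own. The same rule applied to the double mutant, which shares the Thorne libraries, gave 208 higher genes (0.619%) and 339 lower ones (1.01%). With no fold limit, both double mutant libraries were above both Thorne libraries at 147 of the 189 higher genes. They were below both at 330 of the 402 lower genes, so most of these genes were not particular to the single mutant. The same Thorne libraries serve both comparisons, which favours such sharing, and its share over all tested genes was not counted.

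No gene passed the test of the group difference. The quasi-likelihood test of edgeR on the 6 V5 libraries called 0 of 33599 genes (0%) at an adjusted p under 0.05, with 2022 genes (6.02%) at an unadjusted p under 0.05, 1237 higher (3.68%) and 785 lower (2.34%). DESeq2 on the same libraries called 167 genes (0.497%), 129 higher (0.384%) and 38 lower (0.113%). It gave no adjusted p for 1303 of the 33599 genes, which could not be called and are kept in these shares. Limma with quality weights called 0 (1314 at an unadjusted p under 0.05). Which single mutant library was kept decided the outcome. Without replicate 2, edgeR called 0 of 34215 genes, with 5541 (16.2%) at an unadjusted p under 0.05 and a smallest adjusted p of 0.0878, and DESeq2 called 440 (1.29%). Without replicate 1, edgeR called 21539 of 35927 genes (60%), 10640 higher and 10899 lower. Each of these fits takes the spread of the lone single mutant library from the other groups.

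Among genes without overlap between the groups and with a mean log2 CPM of at least 1, the smallest p-values belonged to Glyma.01G193600 and Glyma.06G259800 on the higher side and Glyma.07G014500 and Glyma.04G024400 on the lower side. A choice by smallest p favours genes whose single mutant replicates 1 and 2 are alike. Closeness of these replicates at the named genes therefore follows in part from the choice. Glyma.01G193600 was at 2.97 and 2.82 CPM in Thorne and at 25.3 and 25 CPM in single mutant replicates 1 and 2. Both single mutant libraries stood about equally far above Thorne, 7.6-fold and 7.5-fold above its mean. The double mutant libraries, at 19.5 and 10.4 CPM, were also above Thorne. The log2 fold change was 3.11 (SE 0.38), with an edgeR adjusted p of 0.649 and a DESeq2 adjusted p of 2.49e-06.

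Glyma.06G259800 was at 9.45 and 8.58 CPM in Thorne. The single mutant libraries were at 27.4 and 25.5 CPM, and the double mutant libraries at 22.1 and 18.5 CPM. The 2 single mutant libraries were the highest of the 6 and close to each other. Its log2 fold change was 1.55 (SE 0.22), with an edgeR adjusted p of 0.649 and a DESeq2 adjusted p of 0.00392.

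Glyma.07G014500 was at 10.5 and 19 CPM in Thorne. The single mutant libraries were at 0.6 and 0.5 CPM, which is 12 and 14 counts. The double mutant libraries lay between, at 7.25 and 3.92 CPM. The single mutant was 13.9-fold and 15.3-fold below the Thorne mean in replicates 1 and 2, with a pseudocount of 0.5 CPM that understates the distance of so low a gene. The log2 fold change was -4.74 (SE 0.54), with an edgeR adjusted p of 0.649 and a DESeq2 adjusted p of 4.02e-09. In the libraries labelled R5 this gene had 291228 to 1005113 counts in Thorne and the single mutant, against 304 or fewer in every V5 library.

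Glyma.04G024400 was at 14.7 and 20.5 CPM in Thorne, 2.8 and 1.5 CPM in the single mutant, and 11.5 and 13.9 CPM in the double mutant. Both single mutant libraries stood below the other 4 V5 libraries. Its log2 fold change was -3.04 (SE 0.41), with an edgeR adjusted p of 0.649 and a DESeq2 adjusted p of 2.12e-05. At R5 it had 0 to 2 counts in every library of Thorne and the single mutant.

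The 10 genes with the smallest p in each direction under these conditions spanned a wide range of levels. The 10 higher genes had log2 fold changes of 1.55 to 3.11, with Thorne levels of 1.13 to 34.5 CPM and single mutant levels of 5.55 to 104 CPM. The 10 lower genes had log2 fold changes below 0, of 1.28 to 4.74 in size. Their Thorne levels were 7.39 to 131 CPM and single mutant levels were 0.5 to 24.4 CPM. All 20 had an edgeR adjusted p of 0.649. Without single mutant replicate 1 the edgeR log2 fold change was 3.06 for Glyma.01G193600, 1.45 for Glyma.06G259800, -4.91 for Glyma.07G014500 and -3.60 for Glyma.04G024400. Without single mutant replicate 2 these values were 3.12, 1.61, -4.60 and -2.65 in the same order. Each of these fits holds a lone single mutant library. The choice by smallest p favours genes whose replicates are alike, so the small movement of these values follows in part from it.

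**Figure D1:**
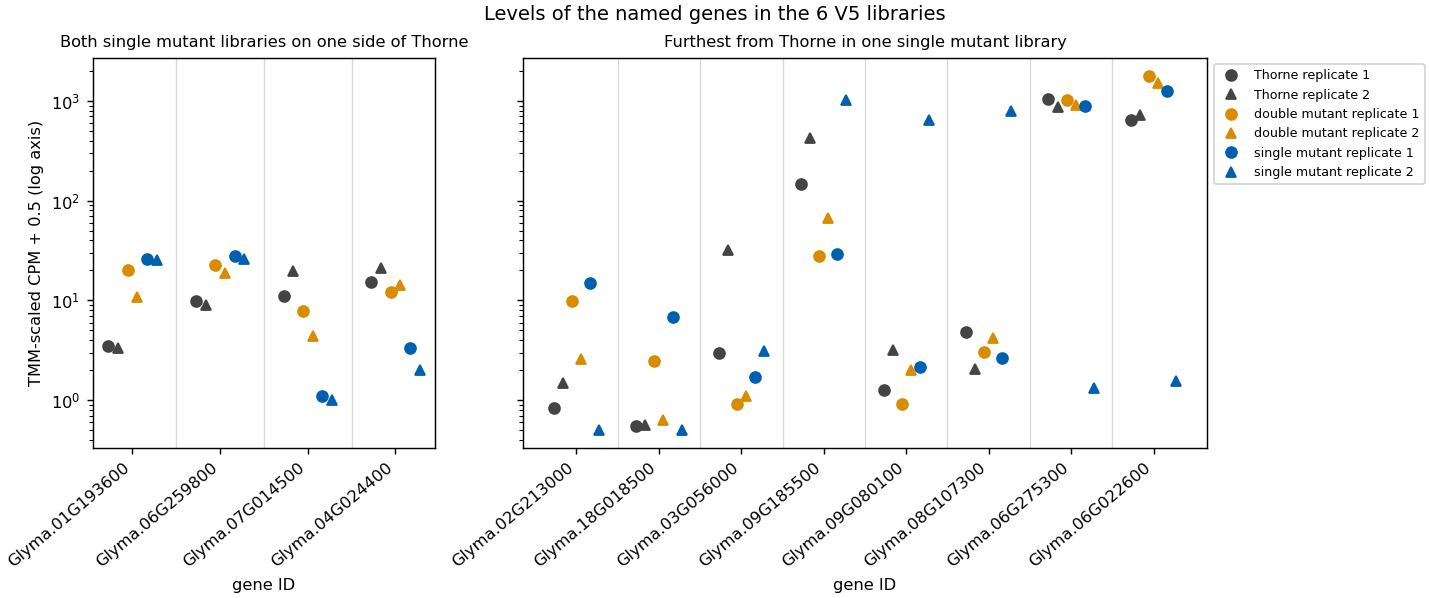
Levels of the named genes in the 6 V5 libraries, as TMM-scaled CPM plus 0.5 on a log axis, with circles for replicate 1 and triangles for replicate 2. In the left panel both single mutant libraries (blue) lie on 1 side of Thorne (grey). For Glyma.01G193600 they are at 25.3 and 25 CPM, against 2.97 and 2.82 CPM in Thorne. In the right panel 1 single mutant library lies outside the Thorne range and the other lies inside it or on its other side.

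Of all 56044 gene IDs, 2 had no count in either Thorne library and at least 20 counts in each single mutant library. They were picked with their values in view. Glyma.14G055400 had 34 and 96 counts in single mutant replicates 1 and 2, and 9 and 6 in the double mutant. Against a floor of 3 counts per Thorne library it was at least 9.71-fold and 19.6-fold higher. Glyma.18G231500 had 57 and 1141 counts in the single mutant, and 20 and 0 in the double mutant. It was at least 16.3-fold higher in replicate 1 and at least 233-fold higher in replicate 2. For both genes edgeR's adjusted p was 0.649. The reverse, at least 20 counts in both Thorne libraries and none in either single mutant library, held for 0 genes. With the double mutant libraries in place of the single mutant, each rule held for 0 genes.

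Single mutant replicate 1 lay much closer to Thorne than replicate 2 did. Over the abundant genes it was still further from each Thorne library (0.338 and 0.410) than these were from each other (0.270). At least 2-fold above the Thorne mean and outside the Thorne range were 601 genes (1.79%), and 778 genes (2.32%) were below in this way. Double mutant replicate 1 had 597 genes above (1.78%) and 742 below (2.21%), and double mutant replicate 2 had 312 above (0.929%) and 442 below (1.32%). By an unlike measure, 1 library against 1 with no range limit, the 2 Thorne libraries were at least 2-fold apart at 787 genes (2.34%). The double mutant libraries were so at 261 (0.777%) and the single mutant libraries at 13255 (39.5%). In replicate 1 the log2 ratios ran from -0.72 at percentile 5 to 0.67 at percentile 95. There 6 genes (0.0179%) were over 8-fold above Thorne and 26 (0.0774%) over 8-fold below, and over 32-fold there were 0 above and 2 (0.00595%) below. Without Thorne replicate 1 the count above was 1088. With 1 library there is no test of these counts.

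At 337 of all tested genes (1%) replicate 1 was at least 2-fold above Thorne and replicate 2 was not above it, and at 288 (0.857%) replicate 1 was at least 2-fold below and replicate 2 was not below it. The 4 named here stood furthest from Thorne in replicate 1 among genes that replicate 2 placed inside the Thorne range or on its other side, and they varied between replicates in other groups too. Glyma.02G213000 was at 0.324 and 1 CPM in Thorne, 14.6 CPM in single mutant replicate 1 and 0 CPM in replicate 2. Double mutant replicates 1 and 2 were at 9.25 and 2.1 CPM. Glyma.18G018500 had 1 count in each Thorne library, 127 counts in single mutant replicate 1, 0 in replicate 2, and 42 and 3 in the double mutant. Both genes were thus high in the replicate 1 libraries of both mutants and lower in the replicate 2 libraries. On the lower side, Glyma.03G056000 was at 2.48 and 31.5 CPM in Thorne, 1.2 CPM in replicate 1 and 2.64 CPM in replicate 2. Its Thorne mean comes almost wholly from Thorne replicate 2. Glyma.09G185500 was at 145 and 425 CPM in Thorne, 28.8 CPM in replicate 1 and 1020 CPM in replicate 2, with 27.7 and 65.9 CPM in the double mutant libraries. The 2 single mutant libraries lay on opposite sides of Thorne for this gene, as they did, at least 2-fold each, for 258 genes (0.768%).

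Single mutant replicate 2 differed from Thorne at far more genes. It was at least 2-fold above the Thorne mean and outside the range at 5748 genes (17.1%) and below at 6984 genes (20.8%). In this library 595 genes (1.77%) were over 8-fold above Thorne and 868 (2.58%) over 8-fold below, and 0.292% of tested genes were over 32-fold above and 0.366% over 32-fold below. The log2 ratios ran from -2.35 at percentile 5 to 1.99 at percentile 95. Over all 56044 gene IDs, it had at least 20 counts at 255 genes with no count in Thorne, against 9 such genes in replicate 1. It had no count at 106 genes with at least 20 in both Thorne libraries, against 3 in replicate 1. By library total alone, 73.2% of the genes outside the Thorne range and at least 2-fold from its mean were higher in it, against 45.1% with TMM scaling, and the median log2 ratio of all genes moved from -0.03 to 0.56. In replicate 1 the same change moved the share higher from 43.6% to 63.3% and the median from -0.01 to 0.16.

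The next 4 genes stood furthest from Thorne in replicate 2 among those that replicate 1 placed inside the Thorne range or on its other side. Glyma.09G080100 was at 0.756 and 2.69 CPM in Thorne, 1.65 CPM in replicate 1 and 644 CPM in replicate 2. Glyma.08G107300 was at 4.32 and 1.57 CPM in Thorne, 2.15 CPM in replicate 1 and 790 CPM in replicate 2. In replicate 2 these genes were 290-fold and 230-fold above the Thorne mean. Glyma.06G275300 was at 1050 and 869 CPM in Thorne, 896 CPM in replicate 1 and 0.821 CPM in replicate 2. Glyma.06G022600 was at 651 and 718 CPM in Thorne, 1270 CPM in replicate 1 and 1.07 CPM in replicate 2. Replicate 2 had 23 and 30 counts of these last genes, where each other V5 library had at least 11464. All 4 had at most 1 count per R5 library of Thorne and the single mutant, except Glyma.08G107300, which had 44 to 237.

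**Figure D2:**
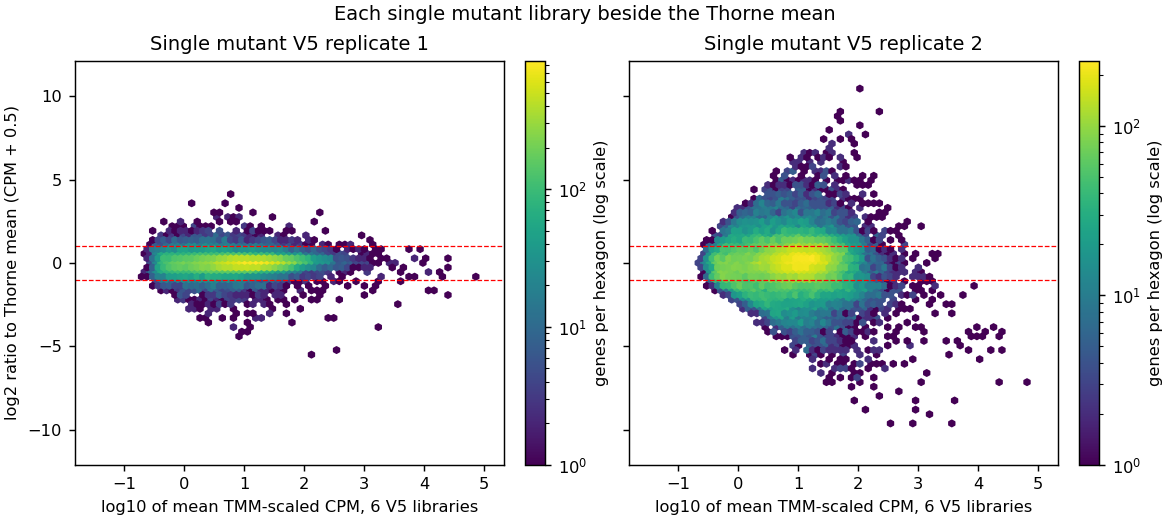
Log2 ratio of each single mutant V5 library to the Thorne mean (CPM plus 0.5) against the log10 of the mean TMM-scaled CPM over the 6 V5 libraries, with the number of genes per hexagon in colour on a log scale and dashed lines at 2-fold. Percentiles 5 and 95 lie at -0.72 and 0.67 in replicate 1 and at -2.35 and 1.99 in replicate 2, with the most abundant genes well below 0.

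The difference between the single mutant libraries was largest among abundant transcripts. The 20 most abundant genes of Thorne at V5 held 35.8% and 42.1% of the counts in the Thorne libraries, 29% in single mutant replicate 1 and 2.38% in replicate 2, with 27.9% and 28.1% in the double mutant. These genes stood at 5560 to 141000 CPM in Thorne, 1320 to 64700 CPM in replicate 1 and 9.61 to 3130 CPM in replicate 2. In replicate 1, 15 of the 20 were below the Thorne range and 4 at least 2-fold below the mean, and the median log2 ratio was -0.62. In replicate 2 all 20 were at least 2-fold below, with a median of -4.44. The double mutant libraries had 16 and 20 of them below the Thorne range, with medians of -0.74 and -0.79. None of the 20 had an unadjusted p under 0.05 in edgeR (0 genes).

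Wider sets of abundant genes followed the same order of libraries. The 1000 most abundant genes of Thorne held 59.9% and 65.3% of its counts, 56.3% in single mutant replicate 1 and 24.4% in replicate 2. These sets were ranked by their level in Thorne, which favours high values there by construction. By mean level over all 6 V5 libraries, 58 genes were over 1000 CPM. That mean includes the Thorne libraries, so it too favours genes high in Thorne, and the shares that follow are partly set by it. Of the 58 genes, 8 (13.8%) were at least 2-fold below Thorne in replicate 1 and 45 (77.6%) in replicate 2. In the double mutant libraries it was 15 (25.9%) and 12 (20.7%). In replicate 1, 2 of the 58 were at least 2-fold above Thorne, and in replicate 2, 1 was. At least 2-fold below in both single mutant libraries were 7 (12.1%) of the 58, against 1.2% of all tested genes.

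Among genes of middle abundance an excess below Thorne was clear only in replicate 2 between 100 and 1000 CPM. These classes were set by the same mean, with the same limit. Over all tested genes, 20.8% were at least 2-fold below Thorne in replicate 2 and 2.32% in replicate 1. Between 100 and 1000 CPM, 45.4% of 866 genes were at least 2-fold below Thorne in replicate 2 and 2.42% in replicate 1. Between 10 and 100 CPM the shares were 20% and 1.14% of 14133 genes. Above Thorne in that class were 17.5% in replicate 2 and 0.892% in replicate 1.

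**Figure D3:**
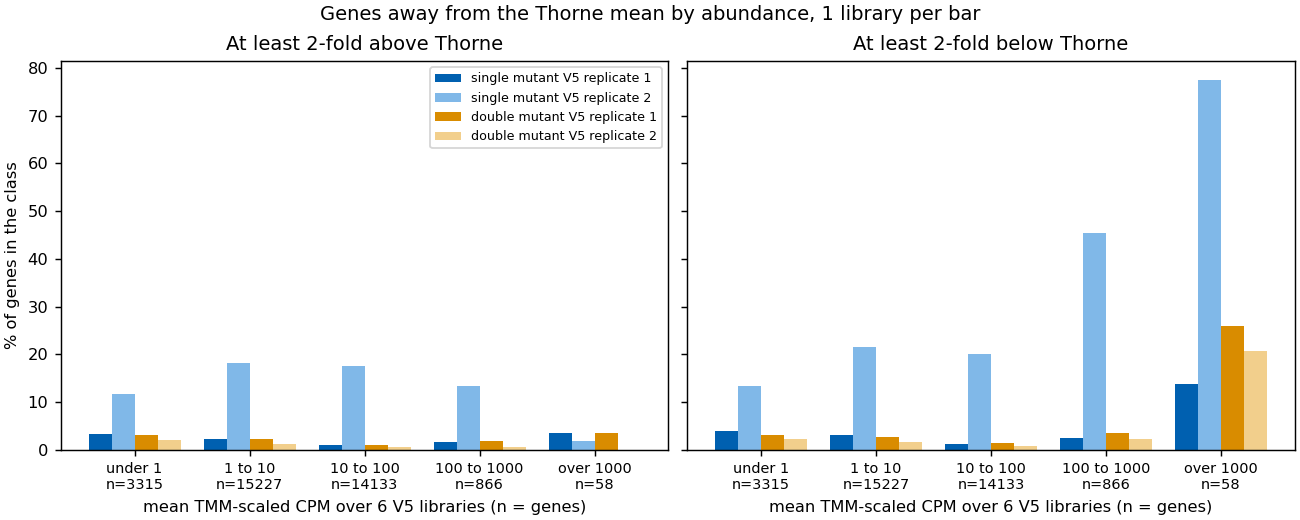
Share of genes at least 2-fold above (left) or below (right) the Thorne mean and outside the Thorne range, by class of mean TMM-scaled CPM, with 1 bar per mutant V5 library. Among the 58 genes over 1000 CPM, 77.6% lay below Thorne in single mutant replicate 2 and 13.8% in replicate 1. The mean that sets the classes includes the Thorne libraries.

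The chromosome of each gene was read from its ID. The share of tested genes above Thorne in both single mutant libraries ran from 0.221% on chromosome 10 to 0.955% on chromosome 17, against 0.563% over all genes. The share below ran from 0.776% on chromosome 17 to 1.57% on chromosome 19 among the placed genes, against 1.2% over all. On chromosome 20, which carries the edited locus, 6 of 1472 genes (0.408%) were above and 18 (1.22%) below. Neither share was at the edge of the range over chromosomes. In replicate 1 alone, 3.19% of chromosome 20 genes were at least 2-fold from Thorne in either direction, the lowest share of the 20 chromosomes, against 4.1% of all genes. In replicate 2 the chromosome 20 share was 34.9%, also the lowest, against 37.9% of all genes.

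**Figure D4:**
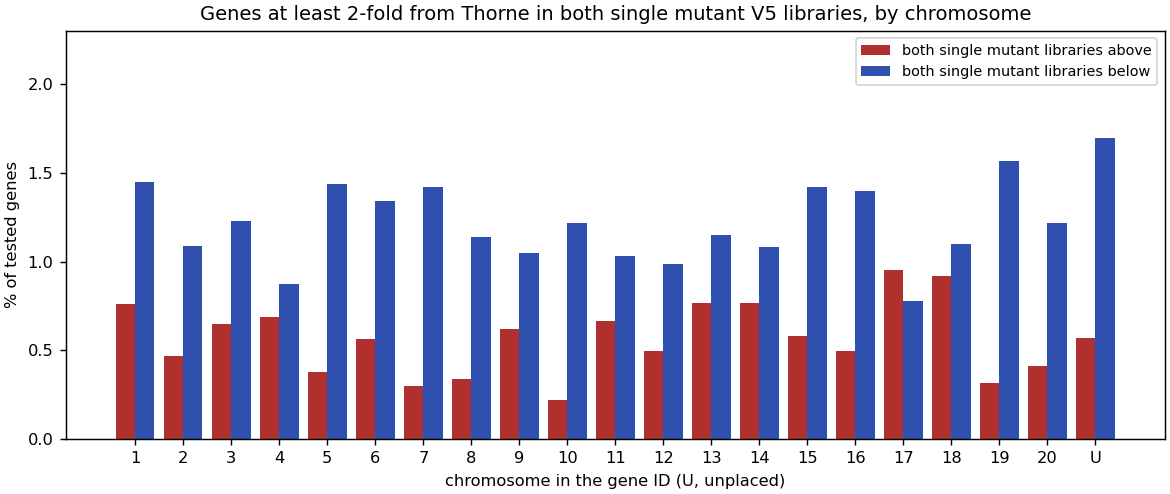
Percent of tested genes on each chromosome that were at least 2-fold above (red) or below (blue) Thorne in both single mutant V5 libraries, with U for unplaced sequences. Chromosome 20, at 0.408% above and 1.22% below, lies inside the range of the other chromosomes.

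The single mutant's difference from Thorne was then compared between the libraries labelled V5 and R5. Over all 12 libraries edgeR called 0 of 38559 genes (0%) for a change of the difference, with 2645 at an unadjusted p under 0.05, and DESeq2 called 134. Without single mutant V5 replicate 1 edgeR called 9713, and without replicate 2 it called 0. Glyma.07G014500 had a log2 fold change of 0.17 at R5 and -4.74 at V5, and the change of -4.92 (SE 1.41), V5 minus R5, had an edgeR adjusted p of 0.7. DESeq2 gave -4.98 with an adjusted p of 2.59e-05. The edgeR change was -5.08 without single mutant V5 replicate 1 and -4.79 without replicate 2. No such test is given for Glyma.04G024400, which was nearly without counts at R5.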

How the data were processed

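The authors deposited 1 table per library with whole-number read counts for 56044 gene IDs, not normalized. The tools named per the submitters' processing notes are Bowtie, HISAT2 and HTSeq, without version or order. Genome build, strand setting and handling of multiply matching reads were not given in the sources used here, so counts of near-identical soybean gene copies are uncertain.

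Counts were tested with edgeR 4.0.16 in R 4.3.3 (quasi-likelihood, TMM, filterByExpr with a minimum count of 10 and minimum total of 15, Benjamini-Hochberg over all genes tested) on the 6 V5 libraries, which leaves 3 residual degrees of freedom. The SE of a log2 fold change is its size divided by the square root of F. DESeq2 1.42.0 and limma 3.58.1 (voom with quality weights) were alternatives. Ratios of single libraries used TMM-scaled CPM plus 0.5. The code was tested on simulated data. Totals were 20410270 to 21066989 per V5 library, and floors cover counting error only.

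The 59048 genes of the reference table matched 0 IDs, so the 27 planned gene lists, defined by product descriptions, could not be filled. Named genes are those without overlap between groups, with a mean log2 CPM of at least 1 and the smallest p, and those furthest from the Thorne mean in 1 single mutant library with the other inside the Thorne range or opposite, with at most 2 IDs per direction. Groups, rules and lists were chosen with earlier results of these data known.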

Additional observations from a re-analysis of the deposited data

Results flagged for a closer look

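For 2 of the genes named for the smallest p, both single mutant libraries lay above both Thorne libraries at V5 and below both at R5. How many of all tested genes show this order was not counted. Neither of the 2 genes passed against Thorne in edgeR, with an adjusted p of 0.649 at V5 and 0.585 at R5 for both. Glyma.01G193600 at R5 was at 32.3 and 64.8 CPM in Thorne against 9.3 and 17.1 CPM in the single mutant. The V5 levels were 2.97 and 2.82 CPM for Thorne and 25.3 and 25 CPM for the edited line. The log2 fold change moved by 4.98 (SE 0.66), V5 minus R5, with an edgeR adjusted p of 0.625 and a DESeq2 adjusted p of 3.38e-07. Glyma.06G259800 at R5 was at 14.7 and 25.8 CPM in Thorne against 8.36 and 7.24 CPM in the single mutant. The V5 levels were 9.45 and 8.58 CPM for Thorne and 27.4 and 25.5 CPM for the edited line. The fold change on the log2 scale moved by 2.91 (SE 0.41), V5 minus R5, with an edgeR adjusted p of 0.625 and a DESeq2 adjusted p of 4.28e-06. Without single mutant V5 replicate 1 the edgeR change was 4.94 for Glyma.01G193600 and 2.83 for Glyma.06G259800. Without single mutant V5 replicate 2 it was 4.99 and 2.97. Each of these fits holds a lone single mutant V5 library. Both genes were named for a small p at V5, so this comparison is not independent of the choice. Levels at R5 and V5 were scaled separately. The double mutant libraries lay on the same sides of Thorne for both genes. Glyma.01G193600 was at 19.5 and 10.4 CPM in them at V5 and at 18.9 and 13 CPM at R5. For Glyma.06G259800 their levels were 22.1 and 18.5 CPM at V5 and 6.87 and 8.99 CPM at R5.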

How the results depend on the processing

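The 0 edgeR calls against Thorne were 0 also with RLE factors, without the filter, with 4 or 12 libraries, with the replicate block and in limma. DESeq2 called 167, and 440 or 16318 without single mutant replicate 2 or 1. Leaving out 1 library in edgeR gave 0 to 21539 calls, the latter without single mutant replicate 1. For the change between V5 and R5, 0 calls became 134 in DESeq2, and 0 to 9713 with a single mutant library left out. The replicate block left 0 calls in both tests. Over 7967 genes, same-numbered deviations correlated at -0.05 between Thorne and the single mutant, 0.18 between Thorne and the double mutant and 0.02 between the mutants. The numbers were not taken to pair the libraries, since the labels do not say that they do. The values for the single mutant cannot decide this, since its replicate 2 stood apart from all other V5 libraries.

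With CPM by library total the counts in both single mutant libraries were 317 higher and 220 lower, replicate 1 had 512 lower, and replicate 2 had 11399 higher and 4164 lower. A pseudocount of 2 CPM gave 53 and 194 in both libraries, and 231 and 332 in replicate 1. A limit of 4-fold gave 15 and 55 in both, 51 and 112 in replicate 1, and 1660 and 2433 in replicate 2. Leaving out 1 Thorne library, a choice made after seeing the data, gave 178 or 357 higher and 404 or 482 lower in both. Replicate 1 then had 534 or 1088 higher. With a single mutant library left out, the rule gave only the counts of the library kept, 601 and 778 or 5748 and 6984. The log2 fold change of Glyma.20G085100 ran from -1.46 to 0.69 with 1 library left out in edgeR, was 0.12 without Thorne replicate 2, and was 0.69 in DESeq2 without single mutant replicate 2. That of Glyma.10G134400 ran from -0.76 to 0.75 in edgeR, was -0.09 in limma, and was -0.72 in DESeq2 without single mutant replicate 1. The 4 genes with the smallest p kept their direction in every alternative run. They were picked for no overlap between the groups in these same libraries, so such runs could hardly reverse them. The causes were not tested.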

Other observations

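Genes lower in both single mutant libraries sometimes lay side by side. Of the 402 lower genes, 35 (8.71%) had a neighbouring tested ID on either side that was also among them, while 2.36% of all tested genes had a neighbour among them. Among the 189 higher genes it was 9 (4.76%), while 1.12% of all tested genes had a neighbour among those. The longest run was 5 consecutive tested IDs, from Glyma.09G158500 to Glyma.09G158900, on the lower side, and 3 on the higher side. Neighbouring IDs can be copies that share reads in the counting, and the part of this in the runs was not tested.

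Limma's quality weights were 0.122 and 0.126 for single mutant replicates 1 and 2, and 2.33 to 3.46 for the other 4 V5 libraries. With 2 libraries in a group, the weights gave both single mutant libraries a low value and did not separate the one that stood apart from all others.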
